A study of Mus musculus with 44 samples.

Results

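In the mouse left ventricle, 10 heart transcription factors were followed on microarrays: the GATA zinc-finger factors Gata4 and Gata6, the homeodomain factor Nkx2-5, the MADS-box factors Mef2a and Mef2c, the T-box factors Tbx5 and Tbx20, the basic helix-loop-helix factor Hand2, and the Iroquois homeodomain factors Irx3 and Irx4. They were chosen by gene symbol, and all 10 were among the 12393 genes tested. They are measured by 22 probe sets of the 22690 on the array, none of which is annotated to another gene as well. Where a gene has several probe sets, the one that varied most (largest SD, 44 arrays) stands for the gene as its headline probe set, and the others are given beside it.

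RNA came from the left ventricle of 44 mice at 6 months of age, with 1 array (Affymetrix 430A 2.0) per mouse. PKCε mice carry a constitutively active rabbit protein kinase C epsilon (A159E) in cardiomyocytes, driven by the mouse Myh6 promoter, on an FVB/N background. Nontransgenic FVB/N mice from a commercial breeder, called FVB here, were the controls, so genotype and colony cannot be told apart. Mice of both lines were injected into the peritoneum either with FG-3149, which binds connective tissue growth factor (CTGF), or with nonimmune mouse IgG. Each injection held 30 mg/kg and came 2 times a week, starting when the mice were 3 months old and going on for another 3 months. The groups held 12 PKCε FG-3149 mice (6 females), 10 PKCε IgG mice (5 females), 12 FVB FG-3149 mice (6 females) and 10 FVB IgG mice (7 females). Mouse numbers ran from 38 to 191 in PKCε FG-3149 and from 192 to 362 in PKCε IgG mice. They ran from 338 to 349 in FVB FG-3149 and from 420 to 443 in FVB IgG mice. Within a line, injection and run of mouse numbers thus cannot be told apart. Under either injection the numbers of PKCε and FVB mice did not overlap, so line and run of mouse numbers cannot be told apart either. No uninjected mice were analysed here.

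These factors work as a network. In the embryo GATA4, NKX2-5, TBX5, MEF2C and HAND2 bind one another and shared enhancers to build the chambers of the heart, and in the adult they keep genes of contraction, ion channels and natriuretic peptides active in heart muscle. TBX5 helps to set atrial and conduction identity, Irx4 is known from chick and mouse as a ventricular factor, and Irx3 is known from mouse as a factor of the fast ventricular conduction system. MEF2 proteins are held in check by class II histone deacetylases, which kinase signals can release.

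Each value is a log2 ratio of the probe set to its own median over the 44 arrays, so 0 is the middle array and levels of different genes cannot be compared. The brightness of the probe sets is not in the values, so it is unknown which probe sets stood above background, and precision is limited by how many arrays there are. In pieces of tissue, fewer cells of a type and less RNA per cell cannot be told apart. Both probe sets of mouse Prkce were measured, but they differed in direction between the lines (medians of 0.22, 0.045, -0.10 and -0.53 at one, and of -0.14, -0.35, 0.25 and 0.20 at the other, in the PKCε FG-3149, PKCε IgG, FVB FG-3149 and FVB IgG groups), and the transgene is of rabbit origin, so they do not check the genotype. On 10 arrays the atrial marker level was above 4; it averages the log2 ratios of 3 genes of atrial muscle (Sln, Myl7, Myl4). They were 2 PKCε FG-3149, 2 PKCε IgG, 1 FVB FG-3149 and 5 FVB IgG arrays. The lowest of them stood at 4.40 and the next array at 3.82. All 5 of these FVB IgG arrays were from females. Another 2 arrays, PKCε IgG replicates 9 and 10, were above the lung marker limit (Sftpc and Scgb1a1 both above 3). Lung signal was not confined to them. The mean of 6 lung markers reached 5.96 in PKCε IgG, 3.30 in FVB IgG, 1.33 in FVB FG-3149 and 1.08 in PKCε FG-3149 mice. The library labelled female in FVB FG-3149 replicate 11 went against its label: the Y-linked gene Eif2s3y stood at 3.61 there, against at most 0.042 on the other arrays labelled female and at least 4.43 on those labelled male.

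Promoter sequences were at hand for 7 of the 10 genes (RefSeq, build GRCm38.p6, 250 bases before each annotated start). The 4 windows printed here belong to genes that changed in at least 1 comparison, and they reach no more than 17 bases into the annotated gene, so that they show sequence upstream of the outermost start. Both strands were searched for short motifs of the factors themselves, and matches stand in capitals.
Irx3, chr8:91801655-91801904, minus strand: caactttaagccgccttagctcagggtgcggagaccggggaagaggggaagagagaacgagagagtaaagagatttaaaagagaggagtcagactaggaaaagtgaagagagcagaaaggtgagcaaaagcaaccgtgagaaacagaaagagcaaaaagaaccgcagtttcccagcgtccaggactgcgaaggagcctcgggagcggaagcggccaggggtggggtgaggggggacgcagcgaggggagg
Mef2c, chr13:83503784-83504033, plus strand: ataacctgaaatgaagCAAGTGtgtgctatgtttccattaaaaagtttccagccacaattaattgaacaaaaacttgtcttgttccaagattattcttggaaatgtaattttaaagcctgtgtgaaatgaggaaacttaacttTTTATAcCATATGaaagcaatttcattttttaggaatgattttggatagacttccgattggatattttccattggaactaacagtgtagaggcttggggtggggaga
Tbx20, chr9:24774304-24774553, minus strand: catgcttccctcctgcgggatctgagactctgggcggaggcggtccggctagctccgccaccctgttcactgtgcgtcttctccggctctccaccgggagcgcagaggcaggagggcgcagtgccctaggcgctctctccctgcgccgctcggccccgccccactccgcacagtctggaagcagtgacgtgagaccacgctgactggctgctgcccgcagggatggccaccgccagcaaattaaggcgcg
Hand2, chr8:57320733-57320982, plus strand: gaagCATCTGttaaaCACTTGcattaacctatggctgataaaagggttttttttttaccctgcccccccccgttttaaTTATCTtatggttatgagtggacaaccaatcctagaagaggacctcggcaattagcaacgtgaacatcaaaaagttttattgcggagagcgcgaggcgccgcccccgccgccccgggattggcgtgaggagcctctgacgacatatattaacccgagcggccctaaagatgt
Among the 32851 RefSeq windows of the same length, the MEF2 motif (CTANNNNTAG) was in 3.2%. The GATA motif (AGATAA) was in 9.99% of them and the T-box motif (GGTGTG) in 16.3%. The NK2 motif (CAAGTG), every match of which is also an E-box, was in 11.6% of the windows and the E-box itself (CANNTG) in 66.2%. The Iroquois motif (ACANNTGT), whose inner letters are an E-box too, was in 6.31% and the TATA motif (TATAAA) in 12.4%. The Mef2c window held 1 NK2 match at 234 bases before the start, another E-box at 100 and a TATA match at 107. The Hand2 window held 1 NK2 match at 235 bases before the start, another E-box at 246 and 1 GATA match at 172. The Irx3 and Tbx20 windows held none of the 7 motifs, and the GC content of the windows in the order printed was 56%, 33.6%, 68.8% and 49.2%, against a median of 52.4% over all windows. A match describes these letters only and is not a binding site.

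The first comparison asks how the transgenic ventricle differed from the control ventricle under IgG. Among the 10 factors, Irx3 and Mef2c rose in PKCε IgG mice and Mef2a, Tbx5 and Hand2 fell, while Gata4, Gata6, Nkx2-5, Tbx20 and Irx4 did not pass the test. These 5 of 10 stand against 42.2% of all genes called in this comparison, so the share of factors called is near the background. Without the 10 arrays of high atrial marker level it was again 5 of 10, against 37.4% of all genes. Females alone gave 4 of 10 against 36.8%, males alone 2 of 10 against 17.5%, and the Gapdh covariate described below 4 of 10 against 31.3%. The rise of Irx3 was 2.05-fold, the fall of Tbx5 1.96-fold and the fall of Mef2a 1.51-fold. The median over the 10 differences was -0.082 and that over all genes -0.046. Calls here and below are limma tests with an adjusted p (Benjamini-Hochberg over all genes) under 0.05, and differences are log2 with the SE of the fit.

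**Figure D1:**
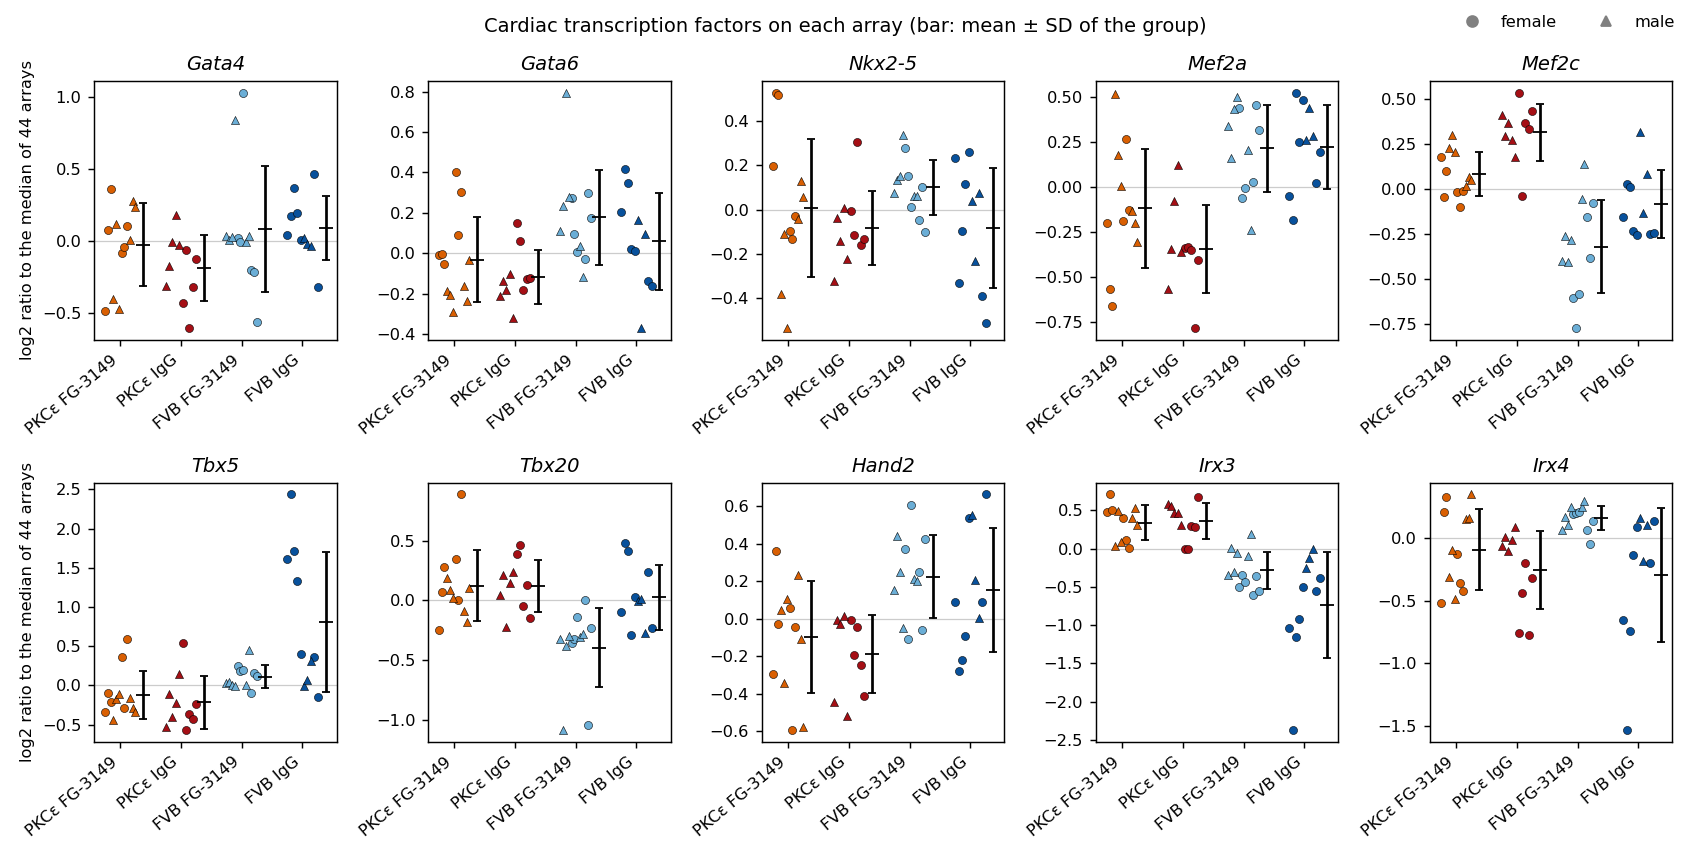
Log2 ratio of each factor to its median of the 44 arrays (vertical axis) on every array of the 4 groups, females as circles and males as triangles, with the mean and SD of the group to the right of its points. Irx3 lies higher in both PKCε groups than in the FVB groups, Mef2a and Hand2 lie lower, and Tbx5 reaches 2.43 only in the FVB IgG group.

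Irx3 had the largest difference between the lines of the 10 factors with all arrays, under IgG as under FG-3149; under IgG that of Tbx5 was larger in females alone (-1.31, against 1.24 for Irx3) and with the Gapdh covariate (-1.12, against 0.95). It ran from 0.010 through a median of 0.40 to 0.71 in PKCε FG-3149 mice, from -0.0050 through 0.39 to 0.68 in PKCε IgG mice, from -0.61 through -0.34 to 0.19 in FVB FG-3149 mice, and from -2.37 through -0.53 to -0.0060 in FVB IgG mice. The PKCε IgG arrays did not overlap the FVB IgG arrays, though the lowest of the first and the highest of the second almost met. Irx3 was the only 1 of the 10 headline probe sets without overlap in this comparison, which 4.38% of all genes showed. The difference was 1.03 ± 0.16 (adjusted p = 8.28e-07) under IgG and 0.62 ± 0.14 (adjusted p = 0.000445) under FG-3149. Irx3 was higher in PKCε IgG mice in females alone (1.24, adjusted p = 0.000215) and in males alone (0.60, adjusted p = 0.00160), where PKCε IgG replicate 5 was the only array of high atrial marker level in this comparison. Once the 10 arrays of high atrial marker level were left out, the rise under IgG was 0.69 (adjusted p = 2.24e-05), against 1.03 with all arrays, and under FG-3149 it was 0.64 (adjusted p = 8.43e-07), against 0.62. FVB IgG replicate 2, which had the highest atrial marker level of all (8.47), also had the lowest Irx3.

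Irx4, the ventricular Iroquois factor, did not follow Irx3 between the lines. It ran from -0.52 through -0.11 to 0.35 in PKCε FG-3149 mice, from -0.78 through -0.15 to 0.094 in PKCε IgG mice, from -0.042 through 0.18 to 0.30 in FVB FG-3149 mice and from -1.53 through -0.16 to 0.16 in FVB IgG mice. The groups overlapped, and the differences between PKCε and FVB were -0.012 ± 0.14 (adjusted p = 0.950) under IgG and -0.25 ± 0.13, not called, under FG-3149. On the 34 arrays without a high atrial marker level the difference under IgG was -0.29 (adjusted p = 0.0782). Across arrays, however, Irx3 and Irx4 moved together: the deviations from the means of group and sex had a Pearson correlation of 0.79 over the 44 arrays. These arrays share the atrial marker level, which moves with both genes, so the value is a description only.

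The 6 Iroquois genes of the mouse lie as neighbours in runs of 3, with no protein-coding gene between Irx1, Irx2 and Irx4 or between Irx3, Irx5 and Irx6. Irx5, which in the mouse ventricle represses the potassium channel gene Kcnd2, rose with its neighbour Irx3 in PKCε mice, by 0.81 ± 0.14 (adjusted p = 7.13e-06) under IgG and 0.48 ± 0.13 (adjusted p = 0.00179) under FG-3149. Irx5 was also the gene most like Irx3 across arrays (0.78). The 3 other genes (Irx1, Irx2, Irx6) were looked at after their values were seen. Irx6 did not pass the test (-0.11 ± 0.062, adjusted p = 0.168). Irx1 and Irx2, the neighbours of Irx4, were lower in PKCε FG-3149 than in FVB FG-3149 mice, by -0.66 ± 0.18 (adjusted p = 0.00318) and -0.48 ± 0.20 (adjusted p = 0.0490). Under IgG they did not pass the test with all arrays (-0.34 ± 0.20, adjusted p = 0.175, and -0.10 ± 0.22, adjusted p = 0.732). On the 34 arrays without a high atrial marker level they were lower under IgG too, by -0.78 (adjusted p = 0.00113) and -0.56 (adjusted p = 0.0111).

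**Figure D2:**
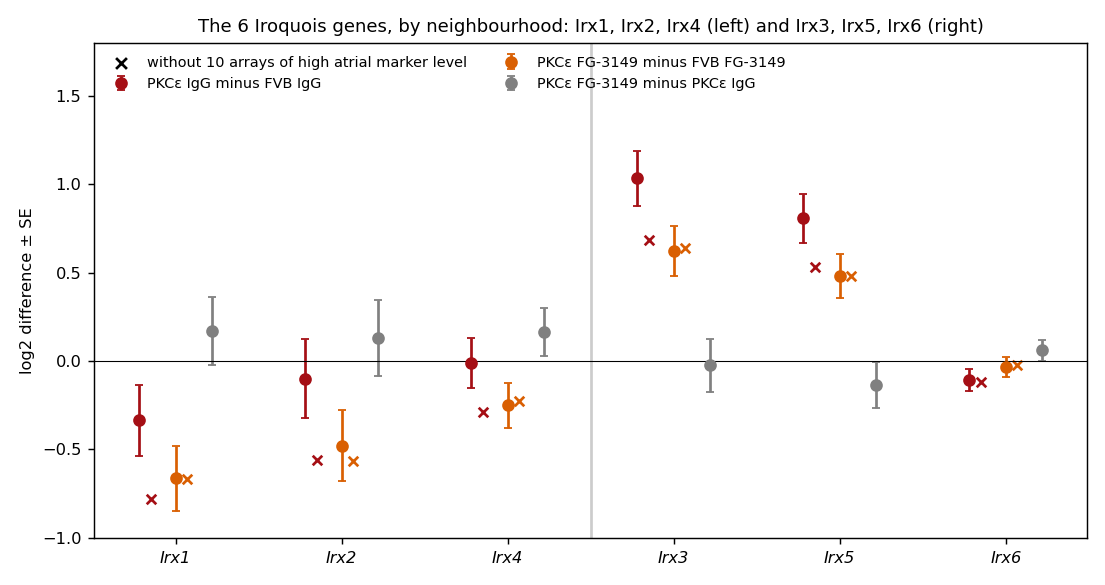
Log2 difference (circles, with the SE) of the 6 Iroquois genes between PKCε and FVB mice under IgG and under FG-3149 and between PKCε FG-3149 and PKCε IgG mice; crosses give the PKCε differences without the 10 arrays of high atrial marker level. Irx3 and Irx5 lie above 0 in both PKCε comparisons, Irx1, Irx2 and Irx4 lie below 0, and the antibody differences in PKCε mice lie between -0.13 and 0.17.

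Mef2c, a MADS-box factor of heart, muscle and vessel that acts with GATA and HAND factors, was higher in PKCε mice at every probe set. At the probe set of largest SD it ran from -0.098 through 0.060 to 0.30 in PKCε FG-3149 mice, from -0.038 through 0.35 to 0.54 in PKCε IgG mice, from -0.77 through -0.33 to 0.14 in FVB FG-3149 mice and from -0.25 through -0.14 to 0.32 in FVB IgG mice. Each of the 10 PKCε IgG values exceeded the median of FVB IgG, and 6 of them exceeded all FVB IgG values. The difference was 0.37 ± 0.080 (adjusted p = 0.000231) under IgG and 0.40 ± 0.072 (adjusted p = 1.81e-05) under FG-3149. The 5 probe sets gave rises of 0.29 to 0.50 under IgG, all called, and at 1451507_at and 1424852_at the PKCε IgG and FVB IgG arrays did not overlap. Counted over probe sets, 15 of the 22 of the factors were called in that comparison, against 41.7% of all 20380 single-gene probe sets. These 15 include all 5 of Mef2c and most of those of Mef2a, so they are not 15 separate results.

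The rise of Mef2c under IgG moved with 1 of the signs of RNA quality. The Gapdh 3' minus 5' difference, in which a higher value goes with more degraded RNA, averaged 0.037 ± 0.11 in PKCε FG-3149 mice, 0.30 ± 0.25 in PKCε IgG mice, -0.13 ± 0.20 in FVB FG-3149 mice and -0.035 ± 0.078 in FVB IgG mice (SD, n = 12, 10, 12 and 10). With this difference as a covariate the rise of Mef2c was 0.13 (adjusted p = 0.186) under IgG and 0.29 (adjusted p = 0.000149) under FG-3149. Males alone gave 0.21 (adjusted p = 0.246) under IgG, against 0.48 (adjusted p = 0.00138) for females alone. A second such sign, the Actb 3' minus 5' difference, did not separate the lines under IgG. It averaged 0.090 ± 0.25 in PKCε IgG and 0.10 ± 0.099 in FVB IgG mice. Under FG-3149 it averaged -0.054 ± 0.16 in PKCε and -0.060 ± 0.18 in FVB mice (SD), and it was not used as a covariate. The part of RNA quality in the result was not tested.

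Mef2a, the paralog of Mef2c that predominates in the adult heart, moved the other way. It ran from -0.66 through -0.16 to 0.52 in PKCε FG-3149 mice, from -0.78 through -0.35 to 0.12 in PKCε IgG mice, from -0.24 through 0.26 to 0.50 in FVB FG-3149 mice and from -0.18 through 0.25 to 0.52 in FVB IgG mice. All 10 PKCε IgG arrays lay below the FVB IgG median and 8 of them below every FVB IgG array. The difference was -0.60 ± 0.11 (adjusted p = 3.75e-05) under IgG and -0.33 ± 0.10 (adjusted p = 0.00818) under FG-3149. Of its 5 probe sets, 4 were called lower under IgG, at -0.60, -0.28, -0.18 and -0.15, and 1427185_at was not (-0.098, adjusted p = 0.119). The fall at the probe set of largest SD was thus larger than at the others, and its correlation with each of them across arrays was 0.011 to 0.34. Mef2a was lower in both sexes under IgG (-0.62, adjusted p = 0.00247, in females; -0.57, adjusted p = 0.0322, in males), and it kept its call without the 10 arrays (-0.66, adjusted p = 0.000891) and with the Gapdh covariate (-0.49, adjusted p = 0.00509). With the mean of its probe sets in place of the headline one the fall was -0.26 (adjusted p = 3.27e-05).

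**Figure D3:**
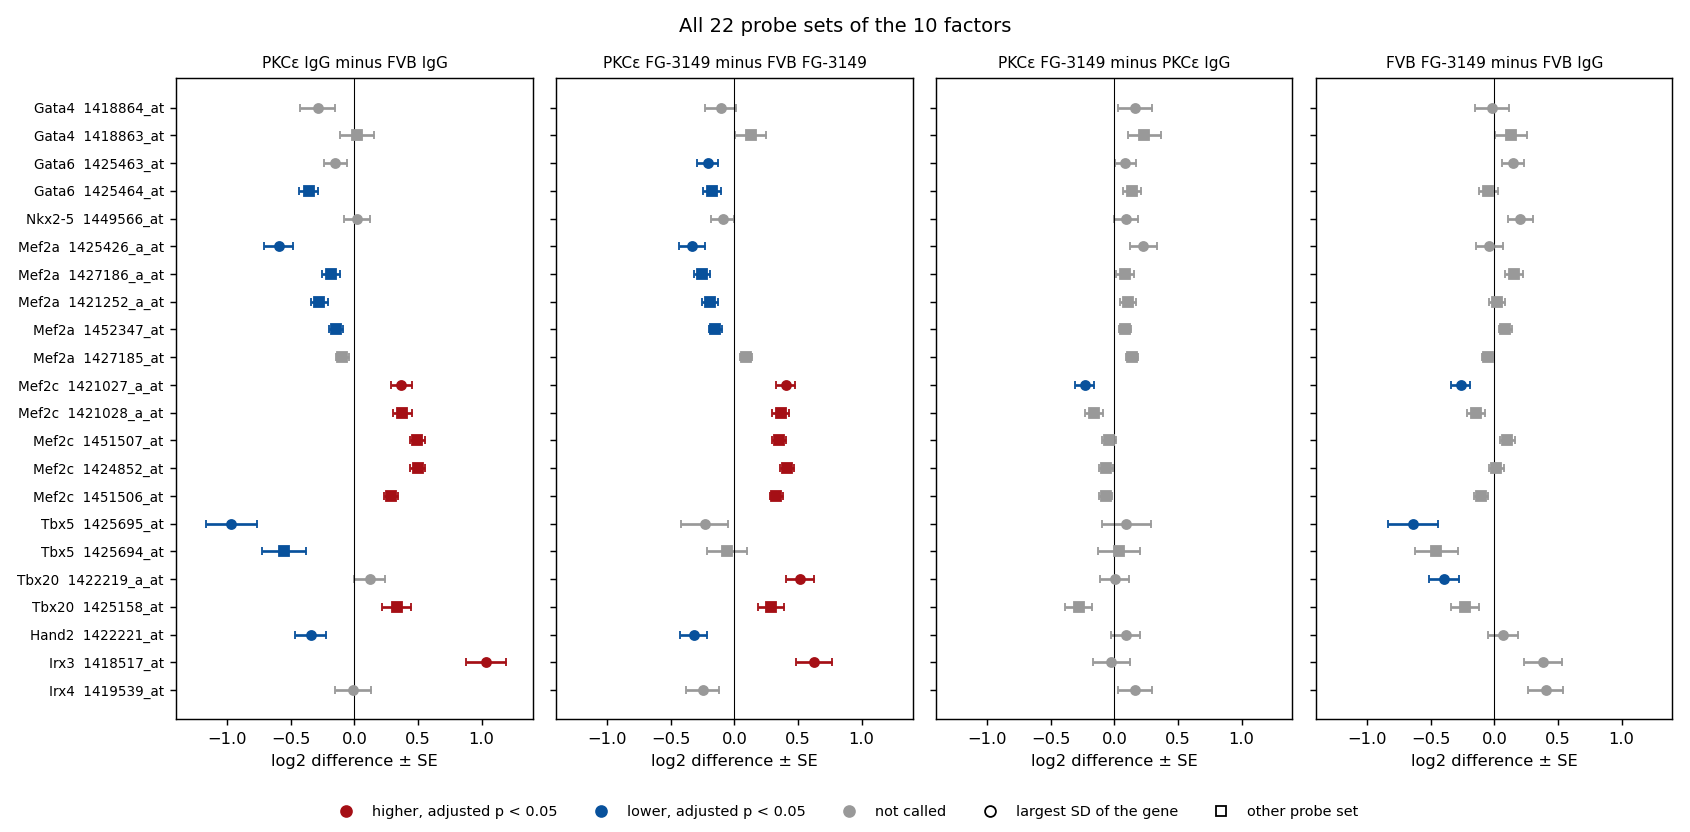
Log2 difference with its SE for each of the 22 probe sets of the 10 factors (rows) in 4 comparisons (panels); red is higher and blue lower at an adjusted p under 0.05, grey is not called, circles mark the probe set of largest SD and squares the others. All 5 Mef2c probe sets lie above 0 in both comparisons of the lines and 4 of the 5 Mef2a probe sets are called lower in both, whereas the antibody comparisons have 1 and 3 coloured points.

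Tbx5, the T-box factor of the atria, left ventricle and conduction system, had the largest fall of the 10 factors under IgG with all arrays, and its highest values came from arrays of high atrial marker level. It ran from -0.44 through -0.19 to 0.59 in PKCε FG-3149 mice, from -0.56 through -0.30 to 0.54 in PKCε IgG mice, from -0.10 through 0.082 to 0.45 in FVB FG-3149 mice and from -0.15 through 0.38 to 2.43 in FVB IgG mice. Only 1 PKCε IgG array lay above the FVB IgG median and 7 lay below every FVB IgG array. The difference under IgG was -0.97 ± 0.20 (adjusted p = 0.000166), and the second probe set, 1425694_at, gave -0.55 ± 0.17 (adjusted p = 0.00964). Without the 10 arrays of high atrial marker level the falls of Mef2a (-0.66) and Hand2 (-0.57) were larger than that of Tbx5 (-0.48), and in males alone that of Mef2a (-0.57) was larger than that of Tbx5 (-0.35).

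On the 10 arrays of high atrial marker level Tbx5 ran from 0.0058 to 2.43, and on the other 34 from -0.56 to 0.45. The 4 highest Tbx5 values of the study, 2.43, 1.71, 1.61 and 1.34, came from FVB IgG replicates 2, 3, 1 and 4, whose atrial marker levels were 8.47, 8.14, 7.74 and 7.87. The same 4 arrays had the 4 lowest Irx3 values (-2.37, -1.16, -1.03 and -0.92). On the other 34 arrays Tbx5 was still lower in PKCε than in FVB mice, by -0.48 (adjusted p = 7.30e-05) under IgG and by -0.36 (adjusted p = 7.92e-05) under FG-3149. With all arrays the difference under FG-3149 was -0.23 ± 0.18 (adjusted p = 0.296). In males alone the difference under IgG was -0.35 (adjusted p = 0.0780). Within the 34 arrays, all 10 PKCε FG-3149 and all 8 PKCε IgG arrays had negative Tbx5 values, the highest being -0.092 and -0.11. The 11 FVB FG-3149 arrays ran from -0.10 to 0.45 and the 5 FVB IgG arrays from -0.15 to 0.40, so the lines met at their edges.

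**Figure D4:**
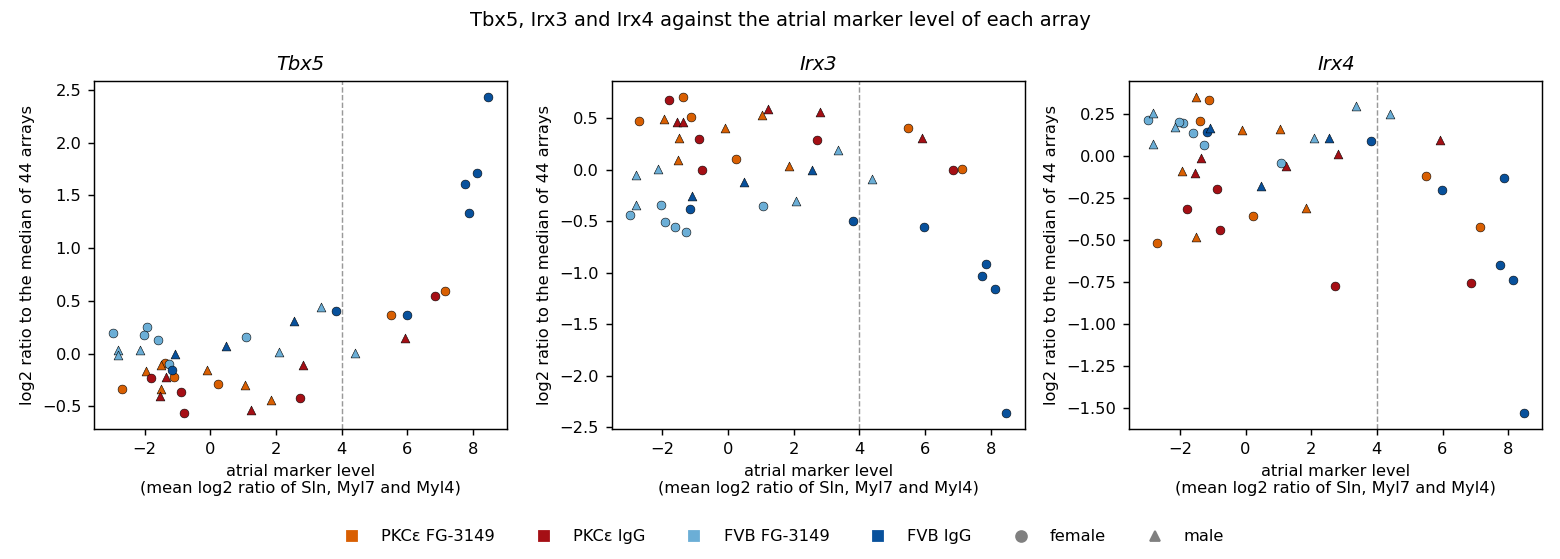
Log2 ratio of Tbx5, Irx3 and Irx4 (vertical axes) against the atrial marker level of each array (horizontal axes, mean log2 ratio of 3 atrial genes); colours give the group and shapes the sex, and the dashed line stands at 4. The FVB IgG arrays on the right carry the highest Tbx5 (2.43) and the lowest Irx3 (-2.37) and Irx4 (-1.53) values, and to the left of the line the PKCε arrays lie mostly above the FVB arrays for Irx3 and mostly below them for Tbx5.

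The atrial marker list held 5 genes, of which 0 were called higher in the PKCε IgG group and 2 lower (Stard10 and Bmp10) relative to FVB IgG. With the antibody in FVB mice 4 of the 5 were called lower (Sln, Myl7, Myl4 and Stard10), and the median difference of the list was -4.00. The list had 0 calls between the lines under FG-3149 and 0 with the antibody in PKCε mice. The mean level of the list ran from -1.66 to 4.68 in PKCε FG-3149 mice, from -1.13 to 4.40 in PKCε IgG mice, from -1.76 to 2.69 in FVB FG-3149 mice and from -0.78 to 6.67 in FVB IgG mice. Fibroblast markers moved with the lines: 9 of 10 were called higher in PKCε mice under IgG and 10 of 10 under FG-3149, and their mean level ran from -0.058 to 0.86 in PKCε FG-3149 mice, from 0.18 to 1.27 in PKCε IgG mice, from -1.09 to -0.44 in FVB FG-3149 mice and from -0.89 to 0.31 in FVB IgG mice. Of the 9 ventricular muscle markers, 4 were called lower in PKCε mice under IgG and 5 under FG-3149, and 0 higher in either. Their mean level ran from -0.24 to 0.0014 in PKCε FG-3149 mice, from -0.40 to -0.014 in PKCε IgG mice, from 0.051 to 0.18 in FVB FG-3149 mice and from -0.11 to 0.30 in FVB IgG mice, so the lines did not overlap in this mean under FG-3149. The largest falls were those of Myh6 (-1.49 under IgG, -0.84 under FG-3149), also a target gene below, and Ryr2 (-0.78 and -0.57). Myl2 (0.081 and -0.016), Myl3 (-0.069 and -0.14) and Actc1 (0.038 and -0.016) were called in neither comparison. Adipocyte markers were called lower at 3 of 3 in PKCε IgG relative to FVB IgG mice (Adipoq, an adipocyte hormone gene, 4.77-fold) and at 3 of 3 with the antibody in FVB mice. Their mean level ran from -1.17 to 1.37 in PKCε FG-3149 mice, from -1.17 to 1.35 in PKCε IgG mice, from -0.98 to 1.93 in FVB FG-3149 mice and from -1.18 to 3.81 in FVB IgG mice. Conduction markers were lower in PKCε mice at 2 of 4 under IgG and at 2 of 4 under FG-3149, and their mean level ran from -0.34 to 0.10 in PKCε FG-3149 mice, from -0.29 to 0.20 in PKCε IgG mice, from -0.057 to 0.13 in FVB FG-3149 mice and from 0.0090 to 0.79 in FVB IgG mice. Macrophage markers were higher in PKCε mice at 1 of 8 under IgG and 5 of 8 under FG-3149, and their mean level ran from -0.33 to 0.40 in PKCε FG-3149 mice, from -0.18 to 0.87 in PKCε IgG mice, from -0.57 to 0.033 in FVB FG-3149 mice and from -0.39 to 0.64 in FVB IgG mice. Over all genes, 20.7% were called higher and 21.5% lower in PKCε mice under IgG, and 21.5% and 25.5% under FG-3149. For the antibody in FVB mice 4.58% of all genes were called lower. The marker lists are short, so their counts are descriptions only. The part of these cell types in the differences of the 10 factors was not tested.

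Tbx20, a T-box factor needed in adult cardiomyocytes, passed the test between the lines under FG-3149 and not under IgG at its headline probe set. It ran from -0.25 through 0.079 to 0.89 in PKCε FG-3149 mice, from -0.22 through 0.14 to 0.46 in PKCε IgG mice, from -1.08 through -0.31 to 0.0019 in FVB FG-3149 mice and from -0.29 through 0.0056 to 0.48 in FVB IgG mice. The 12 PKCε FG-3149 arrays all lay above the FVB FG-3149 median and 9 lay above every FVB FG-3149 array. The difference was 0.52 ± 0.11 (adjusted p = 0.000229) under FG-3149 and 0.12 ± 0.12 (adjusted p = 0.434) under IgG. The other probe set, 1425158_at, was called higher in both, by 0.29 ± 0.10 (adjusted p = 0.0229) and 0.33 ± 0.11 (adjusted p = 0.0174), so the call under IgG depends on the probe set. Whether the line difference itself differed with the antibody is given by the interaction below.

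Hand2, a basic helix-loop-helix factor of ventricle and sympathetic nerve, ran from -0.59 through -0.035 to 0.37 in PKCε FG-3149 mice, from -0.52 through -0.12 to 0.018 in PKCε IgG mice, from -0.11 through 0.23 to 0.61 in FVB FG-3149 mice and from -0.28 through 0.088 to 0.66 in FVB IgG mice. All 10 PKCε IgG arrays lay below the FVB IgG median, and the groups overlapped. It was lower in PKCε mice by -0.34 ± 0.12 (adjusted p = 0.0192) under IgG and by -0.32 ± 0.11 (adjusted p = 0.0146) under FG-3149. Without the 10 arrays of high atrial marker level the fall under IgG was -0.57 (adjusted p = 0.00259). Leaving out FVB IgG replicate 6 gave -0.29 (adjusted p = 0.0530), and leaving out both arrays above the lung marker limit gave -0.30 (adjusted p = 0.0668). Neither sex alone gave a call: the difference under IgG was -0.29 in females (adjusted p = 0.174) and -0.45 in males (adjusted p = 0.0813), and that under FG-3149 was -0.34 in females (adjusted p = 0.112) and -0.31 in males (adjusted p = 0.119).

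The GATA factors and Nkx2-5, the core activators of cardiac genes, did not pass the test between the lines under IgG at their headline probe sets. Gata4 ran from -0.60 to 1.03 and Gata6 from -0.37 to 0.79 over all 44 arrays, and Nkx2-5 from -0.54 to 0.53. Gata4 differed by -0.29 ± 0.14 (adjusted p = 0.0861) under IgG, with 0.023 ± 0.13 at its other probe set. Gata6 was lower in PKCε FG-3149 than in FVB FG-3149 mice by -0.21 ± 0.082 (adjusted p = 0.0327), a call lost when any of 5 arrays was left out (FVB FG-3149 replicates 2, 3 and 4, PKCε FG-3149 replicates 6 and 11; -0.20 to -0.15). The difference was -0.014 in females alone (adjusted p = 0.924) and -0.41 in males alone (adjusted p = 0.0155), and the call was also lost with median centring (adjusted p = 0.0821) and with the Gapdh covariate (adjusted p = 0.0795). Under IgG its headline probe set gave -0.15 ± 0.091 (adjusted p = 0.168) and its other one, 1425464_at, fell by 0.36 (adjusted p = 0.000196), with 9 of 10 PKCε IgG arrays below every FVB IgG array. Nkx2-5 has 1 probe set, which gave 0.019 ± 0.10 (adjusted p = 0.892) under IgG and -0.093 ± 0.093 (adjusted p = 0.413) under FG-3149. Under FG-3149 it averaged 0.16 in PKCε and 0.066 in FVB females, and -0.15 in PKCε and 0.14 in FVB males. Over the alternatives that limma difference ran from -0.28 to 0.098, with a lowest adjusted p of 0.0472, so whether it was called depends on the setting.

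The comparison of the lines under FG-3149 thus called 6 of the 10 factors, against 47.0% of all genes: Irx3, Tbx20 and Mef2c higher, and Mef2a, Hand2 and Gata6 lower. Irx3, Mef2c, Mef2a and Hand2 were called in the same direction in both comparisons of the lines, which use different mice. By probe sets the count under FG-3149 was 15 of 22, against 45.1% of all probe sets, where genes with several probe sets count more than once. Of the 10 headline probe sets, 0 were without overlap, against 5.25% of genes. Without the 10 arrays of high atrial marker level 7 of 10 were called, against 44.9% of all genes, the added factor being Tbx5. Females alone gave 4 of 10 against 33.9% and males alone 6 of 10 against 22.9%. The 6 called in males alone were not the same set, as Mef2a and Hand2 (adjusted p = 0.119) were not called there. Mef2a was called under FG-3149 in females alone (-0.44, adjusted p = 0.0251) and not in males alone (-0.22, adjusted p = 0.287).

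The next comparison asks how transgenic ventricles given the CTGF antibody differed from those given IgG. Of the 10 factors only Mef2c passed the test, at 1 of 10 against 8.82% of all genes (3.74% called lower), and 2 had an unadjusted p under 0.05. By probe sets it was 1 of 22 against 8.62%, and without the 10 arrays of high atrial marker level 0 of 10 against 4.26%. Mef2c was lower in PKCε FG-3149 than in PKCε IgG mice by -0.23 ± 0.076 (adjusted p = 0.0441), with all 12 arrays below the PKCε IgG median. The same PKCε IgG arrays gave the rise of Mef2c under IgG above, so the 2 results share them. Among the probe sets of Mef2c, this call was made at the headline one. The other 4 probe sets of Mef2c gave -0.16 to -0.041 and were not called, and the call was lost when any of 13 arrays, all of PKCε mice, was left out (-0.24 to -0.20, adjusted p up to 0.110). With the Gapdh covariate the difference was -0.054 (adjusted p = 0.763). Mef2a gave 0.23 ± 0.11 (adjusted p = 0.200), with 10 of 12 arrays above the PKCε IgG median, and Irx3 gave -0.024 ± 0.15 (adjusted p = 0.954). The remaining 7 factors had differences between 0.00078 and 0.16, none called.

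In FVB mice the antibody comparison called 3 factors, all lower, against 9.01% of all genes (4.58% called lower), and 6 had an unadjusted p under 0.05. By probe sets it was 3 of 22 against 8.53%. Tbx5 was lower by -0.64 ± 0.20 (adjusted p = 0.0317), Tbx20 by -0.40 ± 0.12 (adjusted p = 0.0269) and Mef2c by -0.27 ± 0.077 (adjusted p = 0.0220). Irx4 (0.40 ± 0.14, adjusted p = 0.0526) and Irx3 (0.38 ± 0.15, adjusted p = 0.103) were not called. Without the 10 arrays of high atrial marker level 0 of the 10 factors were called, against 1.75% of all genes. Tbx5 then differed by -0.0043 (adjusted p = 0.998), Irx3 by -0.022, Irx4 by 0.10, Tbx20 by -0.32 (adjusted p = 0.290) and Mef2c by -0.28 (adjusted p = 0.186). The differences of Tbx20 and Mef2c kept most of their size and those of Tbx5 and Irx3 did not. The Mef2c call rested on 1 of its 5 probe sets, the others giving -0.15 to 0.10. The second probe sets of Tbx5 (1425694_at) and Tbx20 (1425158_at) were not called either. At these, 9 and 11 of the 12 FVB FG-3149 arrays lay below the FVB IgG median. Single arrays ended each of the 3 calls: that of Tbx5 without FVB IgG replicates 1, 2, 3 or 4 or FVB FG-3149 replicates 6 or 10, that of Tbx20 without FVB IgG replicates 2 or 3 or FVB FG-3149 replicate 11, and that of Mef2c without replicate 6 of either FVB group (adjusted p up to 0.0871). The Y-linked signal of FVB FG-3149 replicate 11 goes against its label, and without it Tbx20 differed by -0.32 (adjusted p = 0.0674).

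Whether the antibody acted differently in the lines was tested by the interaction of line and antibody. In limma 0 of the 10 factors passed, against 3.87% of all genes, and 2 had an unadjusted p under 0.05: Tbx5 (0.73 ± 0.28, adjusted p = 0.137) and Tbx20 (0.40 ± 0.17, adjusted p = 0.200). A difference between the lines in the antibody effect on these factors was not detectable with these arrays.

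**Figure D5:**
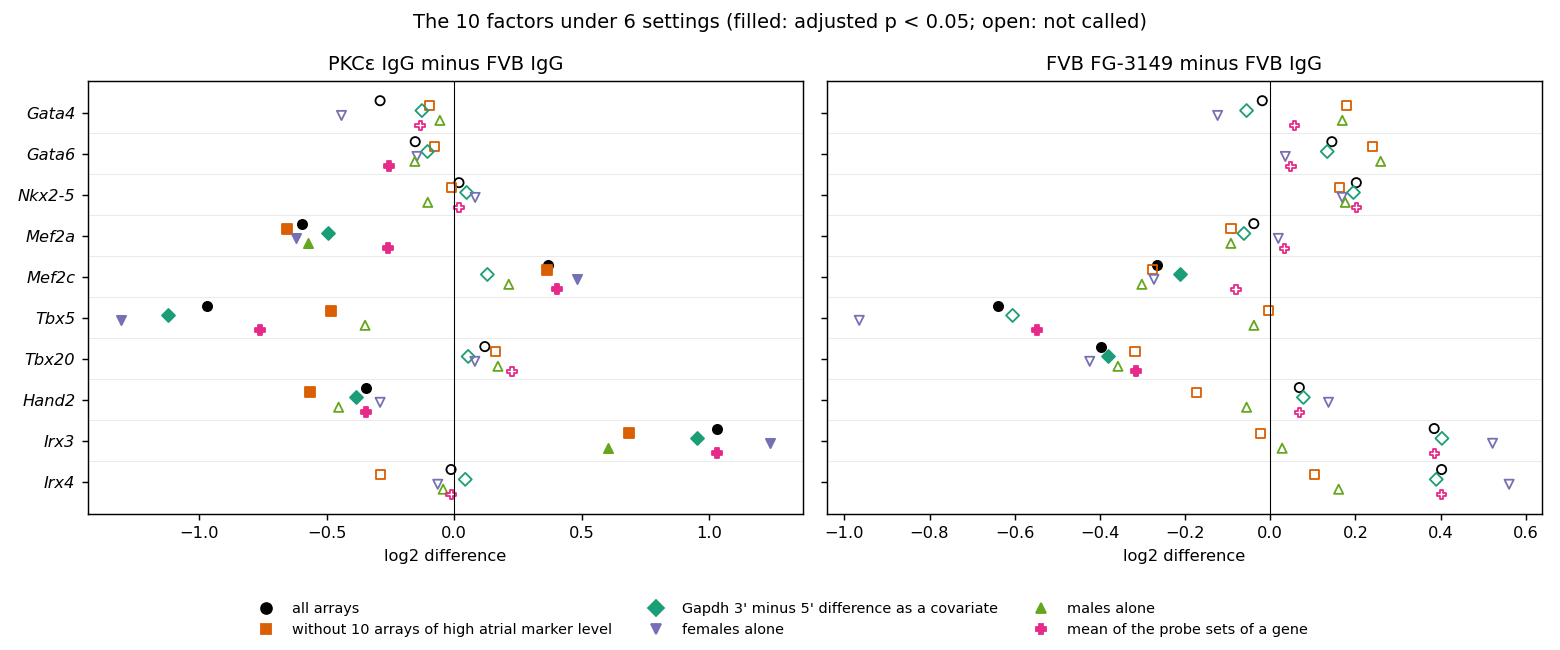
Log2 difference of the 10 factors (rows) between PKCε IgG and FVB IgG mice (left) and between FVB FG-3149 and FVB IgG mice (right) under 6 settings; filled symbols were called and open ones were not. Irx3 and Mef2a are called in all 6 settings on the left, and on the right the arrays without a high atrial marker level put Tbx5 at -0.0043 and Irx3 at -0.022.

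Sex was a term of the fit. Irx3 was lower in females than in males by -0.31 ± 0.11 (adjusted p = 0.0401), the only 1 of the 10 factors called, against 15.8% of all genes. In FVB FG-3149 mice the 6 females ran from -0.61 to -0.34 and the 6 males from -0.34 to 0.19, and in FVB IgG mice the 7 females ran from -2.37 to -0.38 and the 3 males from -0.25 to -0.0060. In PKCε IgG mice the 5 females ran from -0.0050 to 0.68 and the 5 males from 0.31 to 0.59, and in PKCε FG-3149 mice the 6 females ran from 0.010 to 0.71 and the 6 males from 0.039 to 0.53, so the sexes overlapped in the PKCε groups only. Without the 10 arrays of high atrial marker level, of which 8 were from females, the difference was -0.17 (adjusted p = 0.124). Without FVB FG-3149 replicate 11, whose Y-linked signal goes against its label, it was -0.32 (adjusted p = 0.0399). The call was lost when any of 13 other arrays was left out, from all 4 groups (-0.31 to -0.27, adjusted p up to 0.0744). The difference in the PKCε effect between females and males was called for 0 of 10 factors (0.0807% of all genes), with 2 at an unadjusted p under 0.05, Tbx5 (-0.96 ± 0.40, adjusted p = 0.521) and Irx3 (0.64 ± 0.30, adjusted p = 0.564). That in the antibody effect of PKCε mice was called for 0 of 10 (0.0161% of all genes), with 0 at an unadjusted p under 0.05.

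Across the 44 arrays, after the means of group and sex were taken out, the factors fell into few related pairs. Irx3 and Irx4 went together (0.79), Tbx5 went against Irx3 (-0.67) and Irx4 (-0.61), and Gata6 went with Tbx5 (0.47) and against Irx3 (-0.50). These are Pearson correlations over arrays that share the atrial marker level, and no test is attached. The genes most like each factor by the same measure were ranked with the factors themselves left out. For Tbx5 they were Stard10 (0.94), an atrial marker, Rab33a (0.92) and Pum3 (0.91). For Irx4 they were Smyd2 (0.81), a methyltransferase, Rtn4ip1 (0.78) and Bdh1 (0.78). For Irx3 they were Irx5 (0.78), Smyd2 (0.76) and Gsto1 (0.76), and for Nkx2-5 they were Eef1a2 (0.88), an elongation factor of muscle and nerve, Dmpk (0.85) and Eri3 (0.83). Mef2c was most like Fubp1 (0.80), Tpp2 (0.79) and Luc7l2 (0.77), and Mef2a most like Gja1 (0.69), the main gap junction connexin of the ventricle, Nfs1 (0.67) and Eif3a (0.64). The highest values for Gata4 (Kng1, 0.61), Gata6 (Olfml2b, 0.66), Tbx20 (Atp7a, 0.58) and Hand2 (Slc17a9, 0.70) were lower.

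Further transcription factors of the heart were read from a list of 23, of which 22 were measured. In PKCε IgG against FVB IgG mice 3 were higher and 7 lower, and the median difference was -0.15. Over all genes 20.7% were called higher and 21.5% lower, so 10 of 22 is near the background of 42.2%. Prox1, a homeodomain factor that heart muscle needs for its sarcomeres, fell by 0.66 (adjusted p = 4.60e-06), Meis1, a homeodomain partner of HOX proteins, fell by 0.25 (adjusted p = 0.00232), and Tbx18, a T-box factor of the epicardium and sinus node, rose by 0.57 ± 0.13 (adjusted p = 0.000319) beside Irx5. Mef2d, another MEF2 gene, fell by 0.33 (adjusted p = 0.0153), and was named after its value was seen. Under FG-3149 5 were higher and 5 lower in PKCε than in FVB mice, where 21.5% of all genes were called higher and 25.5% lower. With the antibody in PKCε mice 1 of the 22 was higher and 0 were lower, against 5.08% and 3.74% of all genes: Prox1, by 0.38 ± 0.10 (adjusted p = 0.0173). This comparison shares the PKCε IgG arrays with the fall of Prox1 above. In FVB mice 0 were higher with the antibody and 2 lower, the nuclear receptors Nr2f1 (-0.35 ± 0.12, adjusted p = 0.0495) and Nr2f2 (-0.78 ± 0.21, adjusted p = 0.0120), both named after their values were seen. Nr2f2 is known as a factor of atrial identity.

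Cofactors and repressors of these factors were read from a list of 20, of which 17 were measured, 7 higher and 3 lower in PKCε mice under IgG (median 0.12) and 6 higher and 3 lower under FG-3149. These 10 and 9 of 17 stand against 42.2% and 47.0% of all genes called. Hopx, a homeodomain-only protein without DNA binding that restrains serum response factor, fell by 1.30 (SE 0.12, adjusted p = 3.20e-11), or 2.46-fold. Ankrd1, a stress-induced repeat protein of the muscle nucleus and sarcomere, rose by 0.84 ± 0.12 (adjusted p = 4.81e-07), and the Hippo pathway coactivators Yap1 and Wwtr1 rose by 0.64 ± 0.086 (adjusted p = 6.46e-08) and 0.44 ± 0.075 (adjusted p = 5.69e-06). The class II histone deacetylase genes Hdac5 and Hdac7, whose proteins repress MEF2, rose by 0.31 ± 0.088 (adjusted p = 0.00374) and 0.39 ± 0.11 (adjusted p = 0.00258), and were named after their values were seen. Hdac9, the other class II gene measured from the list, was not called (-0.089 ± 0.085, adjusted p = 0.403, under IgG; -0.067 ± 0.077, adjusted p = 0.481, under FG-3149). Hopx was the only 1 of the 17 called for the antibody in PKCε mice, against 8.82% of all genes, higher by 0.73 ± 0.12 (adjusted p = 9.03e-05), and its interaction of line and antibody was called as well (0.64 ± 0.17, adjusted p = 0.0201). Both share the PKCε IgG arrays with the fall of Hopx above.

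Target genes of the factors were read from a list of 24, of which 21 were measured, 5 higher and 8 lower in PKCε mice under IgG (median -0.051) and 7 higher and 7 lower under FG-3149. These 13 and 14 of 21 stand against 42.2% and 47.0% of all genes. The lowest p-values were those of the sarcomere genes Myh7 (3.22 ± 0.13, adjusted p = 5.05e-22), Acta1 (2.29 ± 0.22, adjusted p = 1.85e-11) and Myh6 (-1.49 ± 0.14, adjusted p = 2.17e-11) and of the natriuretic peptide gene Nppb (0.99 ± 0.10, adjusted p = 2.57e-10). The promoter of Myh6 also drives the transgene. Kcnd2, the channel gene that Irx5 is known to repress in mouse, fell by 0.80 (SE 0.13, adjusted p = 4.94e-06) under IgG, and was named after its value was seen. Under FG-3149 Kcnd2 differed by -0.25 ± 0.12 (adjusted p = 0.0867), not called. With the antibody in PKCε mice 5 of the 21 were higher and 0 lower, against 5.08% and 3.74% of all genes, among them Myh6 by 0.62 ± 0.13 (adjusted p = 0.00232) and the calcium channel gene Cacna1c by 0.47 ± 0.11 (adjusted p = 0.00631). This comparison shares the PKCε IgG arrays with the fall of Myh6 above. In FVB mice 1 target was higher with the antibody, the connexin gene Gja1, against 4.43% of all genes, and 2 were lower, Id2 and Nppa, against 4.58%.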

How the data were processed

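Per the series' design text and the submitters' processing notes, the authors ran GCRMA (no version given) on the scanned arrays and then GeneSpring GX 7.3.1, which set each probe set relative to its median. The deposited values are therefore linear ratios, and log2 of them was used here. On checking, the median of every probe set was 1 within 1.5e-07, the medians of the arrays lay between 0.954 and 1.032, and 25 values stood at the lowest ratio of 0.01, none of a member. A genome build for the arrays is not given in the sources used here.

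By GEO's platform annotation 20380 probe sets had 1 gene, 691 several and 1606 none, and 20351 of the 20380 matched RefSeq by gene ID. One probe set per gene (largest SD over 44 arrays) gave 12393 genes. One limma fit (limma 3.58.1, R 4.3.3; lmFit, eBayes) with the 4 groups and sex gave two-sided tests, adjusted by Benjamini-Hochberg over all genes and called under 0.05. Sex interactions used cells of group and sex. The fit was tested on simulated data with independent noise for each gene and array. Such data lack the atrial, lung and RNA quality differences that the real arrays share, so the test does not cover them.

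The members and lists were chosen with earlier results of these data known. Named beside the members were up to 4 genes of a list with the lowest p for PKCε under IgG, up to 2 for the antibody in PKCε mice, and the 3 genes most like each member. Members were left out of that likeness ranking. Replicate numbers were not taken to pair samples. Alternatives are listed after the report. Protein and heart function were not analysed here.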

Additional observations from a re-analysis of the deposited data

Results flagged for a closer look

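Groups of 10 arrays were searched for a single array far from the rest, in 20 combinations of factor and group, and 3 met the limit; chance gives about 1 in 20 per group. FVB IgG replicate 2, from a female, had an Irx3 value of -2.367, against -1.160 for the next array. The same array had an Irx4 value of -1.532, against -0.740 for the next, and the highest atrial marker level (8.47). PKCε IgG replicate 8, from a female, had an Nkx2-5 value of 0.306, against 0.007 for the next array.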

How the results depend on the processing

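The count of factors called for PKCε under IgG was 5 and stood at 4 to 6 when each array was left out in turn; males alone gave 2. For the antibody in PKCε mice it was 1, and 0 to 1 with each array left out. It was 0 without the sex term, with the replicate block, quantile normalization, the mean of the probe sets of a gene, the atrial marker level or the Gapdh difference as a covariate, in females or males alone, and without the arrays of high atrial marker level or of lung markers. For the antibody in FVB mice it was 3, and 1 to 4 with each array left out; the replicate block gave 1, and fitting only the groups compared, females alone, males alone, the atrial covariate and leaving out the 10 arrays gave 0 each. For PKCε under FG-3149 it was 6, 5 to 7 with each array left out and 4 to 8 under the other alternatives (4 in females alone, 8 with only the groups compared). For sex it was 1, and 0 to 2 with each array left out; median centring, the atrial covariate and leaving out the 10 arrays gave 0, quantile normalization and the Gapdh covariate 2, and the mean of the probe sets 4. The 3 interaction counts were 0 under every alternative run. Other alternatives were a filter on low SD, a floor and a pseudocount of 0.1, every probe set tested and robust eBayes. No factor that was called changed direction under any of them. Same-numbered arrays of different groups correlated at -0.50 to 0.35 (62 pairs, median -0.051, 13 over 0.1). These values still hold differences of sex and were not set against pairs of unlike number, so they do not decide whether numbers pair mice. The block stands here only as an alternative. Calls lost when a single array was left out were those of Tbx5 for the antibody in FVB mice (lost without FVB IgG replicates 1, 2, 3 or 4, or FVB FG-3149 replicates 6 or 10), Tbx20 (FVB IgG replicates 2 or 3, FVB FG-3149 replicate 11), Mef2c (FVB IgG replicate 6, FVB FG-3149 replicate 6), Hand2 for PKCε under IgG (FVB IgG replicate 6), Gata6 for PKCε under FG-3149 (any of 5 arrays) and Mef2c for the antibody in PKCε mice (any of 13). Irx4 gained a call for the antibody in FVB mice without any of 8 arrays, and Irx3 lost its call for sex without any of 13. Without FVB FG-3149 replicate 11, labelled female but with a Y-linked signal, the count for the antibody in FVB mice was 2 and that for sex 1. The number of arrays, with the unknown signal over background, sets what these data can show.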
